A study of Homo sapiens with 2 samples.

Results

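The Hippo pathway and the genes that its effectors YAP and TAZ switch on were examined in MCF-10A, an established human breast epithelial line that does not form tumours, after transfection with small interfering RNA (siRNA). One group received an siRNA against SCTR, which encodes the secretin receptor, and the other a negative control siRNA, and each gave 1 Illumina array, to which biotin-labelled RNA copies were bound. The genes were chosen by symbol, 10 in all: YAP1, WWTR1, TEAD1, LATS2, CCN1 (also CYR61), CCN2 (also CTGF), ANKRD1, AMOTL2, AJUBA and AXL. Of these, 7 had a probe named for them among the 10161 named genes, with 8 probes in total, and all 7 were detected on both arrays at a detection p under 0.01, as were 8661 genes in all. TEAD1, ANKRD1 and AXL had no probe that carries their name here and were not analysed.

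The Hippo pathway is a kinase cascade that limits growth. The kinases MST1 and MST2 activate LATS1 and LATS2, which phosphorylate YAP and TAZ and keep them out of the nucleus; when the cascade is off, YAP and TAZ enter the nucleus and activate genes through the DNA-binding TEAD factors. In cultured mammary epithelial cells the cascade is known to be more active at high density, when cells are crowded and in contact, and less active in sparse, spread cells. CCN1, CCN2 and ANKRD1 are the transcripts most often used to read YAP and TAZ activity, and they are also induced by serum response factor (SRF) and by transforming growth factor beta.

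A single array stood for each group, so replicate error is unknown, no difference was tested and precision is set by that number. The arrays were close in overall signal, with a median intensity of 124 on the SCTR siRNA array and 122 on the control array over 47316 probes, and probes detected at 33.5% on the SCTR siRNA array and 32.2% on the control array. No array probe carries the name SCTR here (0 probes), which leaves the knockdown unchecked, and the identity of each array is taken from its label. Of the mammary epithelial markers listed for a check of the cell line, 4 of 9 had a named probe, CDH1, CDH3, EPCAM and KRT8, and all 4 were detected on both arrays. Of the 7 fibroblast markers only COL1A1 had a named probe, and it was detected on the SCTR siRNA array only, close to the limit. Of the 4 leukocyte markers 2 had a named probe, CD14 and CD68, and both were detected on both arrays. PTPRC and CD3E had none. CD14 had an intensity of 13060 on the SCTR siRNA array and 3934 on the control array, and CD68 had 6292 on the SCTR siRNA array and 9079 on the control array; their part in the results was not tested. The endothelial markers had no named probe. The labels give no cell density at harvest, and with 1 array per group a difference in density between cultures and an effect of the siRNA cannot be told apart. Nor can a lower transcript level per cell be told from fewer cells that carry the transcript.

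TEAD factors recognise the letters GGAATG, and the promoters of the target genes are shown to set these letters beside the expression values. The sequences are the 250 bases before the transcription start in RefSeq (build GRCh38.p14, 5′ to 3′ on the gene's strand), and capitals mark GGAATG or its reverse complement CATTCC. CCN2 is on the minus strand (chr6:131951373-131951622), LATS2 on the minus strand (chr13:21061587-21061836), AMOTL2 on the minus strand (chr3:134374448-134374697, its second start) and AJUBA on the minus strand (chr14:22976843-22977092, its second start).
CCN2: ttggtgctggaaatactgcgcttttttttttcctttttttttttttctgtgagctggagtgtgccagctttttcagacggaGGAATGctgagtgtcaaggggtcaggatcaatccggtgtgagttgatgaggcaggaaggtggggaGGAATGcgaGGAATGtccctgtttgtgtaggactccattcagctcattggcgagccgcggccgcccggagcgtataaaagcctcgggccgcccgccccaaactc
AMOTL2: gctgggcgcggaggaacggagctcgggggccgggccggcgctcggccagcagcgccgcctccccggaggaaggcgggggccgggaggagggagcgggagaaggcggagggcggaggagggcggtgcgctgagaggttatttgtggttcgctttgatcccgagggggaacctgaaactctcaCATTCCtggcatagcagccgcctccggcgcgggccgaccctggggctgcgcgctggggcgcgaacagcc
AJUBA: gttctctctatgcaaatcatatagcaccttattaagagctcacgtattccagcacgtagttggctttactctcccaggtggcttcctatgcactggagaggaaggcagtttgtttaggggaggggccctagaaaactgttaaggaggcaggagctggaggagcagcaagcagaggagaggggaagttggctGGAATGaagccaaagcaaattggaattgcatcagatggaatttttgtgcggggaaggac
LATS2: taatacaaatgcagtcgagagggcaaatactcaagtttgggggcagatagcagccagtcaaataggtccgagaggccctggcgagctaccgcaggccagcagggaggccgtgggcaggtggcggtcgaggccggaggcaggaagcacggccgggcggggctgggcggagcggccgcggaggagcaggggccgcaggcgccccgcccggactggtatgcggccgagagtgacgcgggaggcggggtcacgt

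The CCN2 promoter held 3 matches, which begin 169, 104 and 95 bases before the start. At least 1 match was present in 11.9% of the 35116 promoters searched over the same length, at least 2 in 0.94% and at least 3 in 0.0826%. AMOTL2 and AJUBA each have 2 starts in the table, with 1 match before the second start, at 69 bases for AMOTL2 and 59 bases for AJUBA, and 0 before the first. YAP1 had 1 match, at 162 bases, and WWTR1 (2 starts) and LATS2 had 0. CCN1 has no entry in the table, and which start these cells use was not measured. The AP-1 motif TGANTCA, searched on both strands and not overlapping these matches, occurred 0 times in the promoters of YAP1, WWTR1, LATS2, CCN2, AMOTL2 and AJUBA, against 6.57% of all promoters. Over so few promoters the absence of AP-1 matches carries no weight. A match is a run of letters and not evidence of binding.

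**Figure D1:**
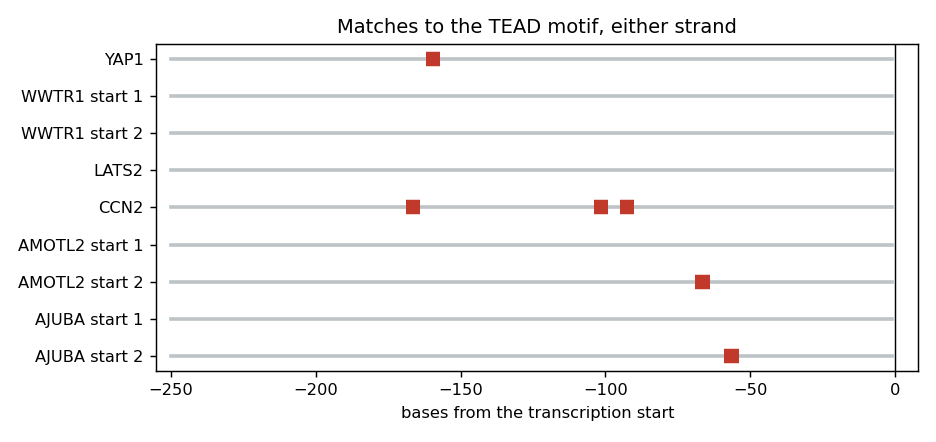
Matches to GGAATG on either strand (red) in the 250 bases before each RefSeq transcription start of the measured genes; the horizontal axis is the distance from the start in bases. CCN2 has 3 matches, YAP1, the second AMOTL2 start and the second AJUBA start have 1 each, and the other starts have 0; CCN1 is not in the table.

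Transcripts of CCN1 and CCN2, which encode secreted matrix proteins, were higher on the SCTR siRNA array. The YAP1 transcript was at the same level on both, and that of LATS2 was lower. CCN1, which binds integrins and promotes adhesion and migration, had an intensity of 9230 on the SCTR siRNA array and 3263 on the control array (probe ILMN_2188264). Both signals were far above the lowest intensity of a detected probe, 156 on the SCTR siRNA array and 155 on the control array. After background correction and quantile normalization its log2 level was 13.15 on the SCTR siRNA array and 11.66 on the control array, a difference of 1.49 or 2.81-fold. Among the 8661 genes detected on both arrays, 342 (3.95%) had a difference at least as high.

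CCN2, or connective tissue growth factor, was read by 2 probes. The brighter (ILMN_1699829) gave 3298 on the SCTR siRNA array and 1303 on the control array, a log2 difference of 1.36 or 2.57-fold. The other (ILMN_2115125) gave 1517 on the SCTR siRNA array and 707 on the control array, a difference of 1.17 or 2.26-fold. The probes had the same sign and differed by less than the probe-to-probe spread of all genes, whose pooled SD was 0.37 over the 1902 genes with at least 2 detected probes. In 381 of those genes (20.0%) the probes lay on opposite sides of 0.

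AMOTL2, a target of YAP, and AJUBA, both of which act on the pathway themselves, were higher on the SCTR siRNA array by less than 2-fold. AMOTL2 is an angiomotin, a junction protein that holds YAP in the cytoplasm. Its probe (ILMN_1778788) had an intensity of 235 on the SCTR siRNA array and 159 on the control array, where the detection p was 0.00649, and the log2 difference was 0.93 or 1.91-fold. The control signal lay close to the limit of detection, and the difference was 0.48 in the authors' processed values, 0.48 with no correction and 1.03 under median scaling. AJUBA, a LIM domain protein of adherens junctions that inhibits LATS kinases, was well above background (ILMN_1687275), at 749 on the SCTR siRNA array and 437 on the control array. Its difference of 0.88, 1.84-fold, ran between 0.74 and 0.88 over the same treatments.

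LATS2, the kinase that inhibits YAP and is itself a YAP target, was lower on the SCTR siRNA array, unlike CCN1, CCN2 and AMOTL2. Its probe (ILMN_1703412) gave 191 on the SCTR siRNA array and 237 on the control array. The detection p of the SCTR siRNA value was 0.0026. The log2 difference was -0.73, so that the control array stood 1.66-fold above the SCTR siRNA array. As a dim probe it was at -0.38 in the authors' values and -0.41 with background left in, under 1.5-fold in both and of the same sign.

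The coactivators themselves differed little. YAP1 (ILMN_1709479) had an intensity of 2197 on the SCTR siRNA array and 2161 on the control array. Its log2 level was 11.03 on each, and its difference lay between -0.05 under median scaling and 0.01 in the authors' values. WWTR1, which encodes TAZ (ILMN_1787115), was dim, at 201 on the SCTR siRNA array and 175 on the control array, with a difference of 0.21 (0.31 under median scaling). Its detection p was 0.0026 on the SCTR siRNA array and 0.0039 on the control array. YAP and TAZ are controlled largely through phosphorylation and location, which transcript arrays do not measure.

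**Figure D2:**
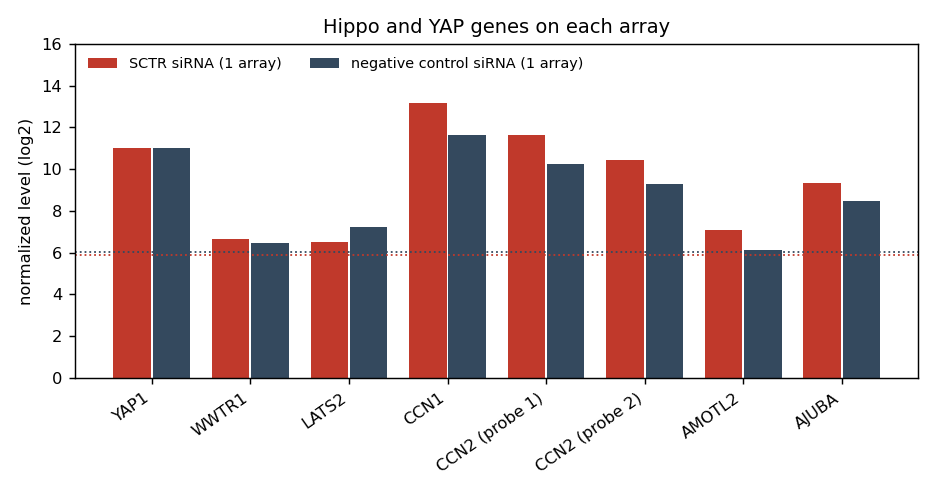
Normalized log2 level of each of the 8 probes on the SCTR siRNA array (red) and the negative control siRNA array (dark blue), 1 array per group and so without error bars; dotted lines mark the detection limit as the lowest detected probe of each array, 5.91 for SCTR siRNA and 6.04 for control siRNA. CCN1 and both CCN2 probes stand higher on the SCTR siRNA array, YAP1 is level, and WWTR1, LATS2 and AMOTL2 lie near the dotted lines.

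Counted by gene with its brightest probe, 2 of the 7 genes were at least 2-fold higher on the SCTR siRNA array, CCN1 and CCN2, and 0 were at least 2-fold lower. The shares over all 8661 genes were 9.73% higher and 8.44% lower by that much. At 1.5-fold, 4 of the 7 were higher, where AMOTL2 and AJUBA join, and 1 was lower, LATS2, against 19.5% and 22.6% of all genes. In the authors' values and without correction, AMOTL2 (0.48 in both) and LATS2 (-0.38 and -0.41) were under 1.5-fold. CCN1, CCN2 and AJUBA stayed above it. The median difference of the 7 was 0.88, with a range of -0.73 to 1.49, while that of all genes was -0.09 (SD over genes 0.80). The 7 genes are few, were chosen with earlier results of these arrays known, and include 2 effectors that the pathway does not control chiefly through transcript level.

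**Figure D3:**
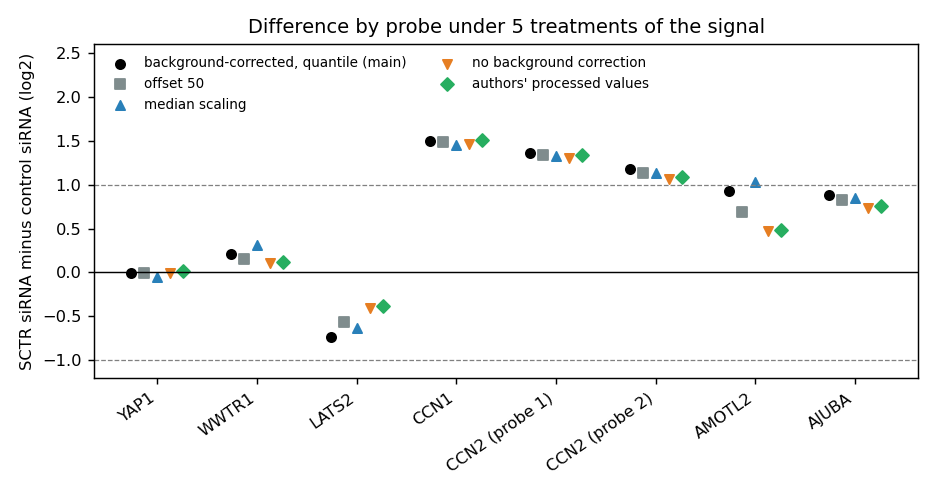
Log2 difference of each probe, SCTR siRNA minus negative control siRNA, under the main treatment and 4 alternatives; dashed lines mark 2-fold and the solid line 0. CCN1 and both CCN2 probes stayed beyond 2-fold under each, AMOTL2 ranged from 0.48 to 1.03, and YAP1 ranged from -0.05 to 0.01.

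Other targets of YAP and TAZ were examined through a list of 22 genes that recur in published signatures. It was written from memory with earlier results of these arrays known, so its counts are not independent support. Of the 22 genes, 14 had a named probe, and all 14 were detected on both arrays. The rest were not measured. Of these, 11 were at least 1.5-fold higher on the SCTR siRNA array, 8 of them at least 2-fold, and 1 was lower by 1.5-fold, LATS2. Of all genes, 19.5% were higher by 1.5-fold, 9.73% by 2-fold, and 22.6% lower by 1.5-fold. Their median difference was 1.18, against -0.09 over all genes, and it was also 1.18 over the 10 that are not among the genes above, of which 8 were at least 1.5-fold higher and 0 lower. F3, the tissue factor that starts coagulation, led the list with an intensity of 9406 on the SCTR siRNA array and 386 on the control array, a difference of 4.94. FJX1, the human relative of the Drosophila gene four-jointed, a regulator of Fat signalling in the fly, was at 5137 on the SCTR siRNA array and 1557 on the control array, a difference of 1.76.

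MYOF, which encodes the membrane repair protein myoferlin, was at 3055 on the SCTR siRNA array and 1188 on the control array by its brightest probe, a difference of 1.38, and its other probes gave 1.18 and 0.76. ASAP1, an Arf GTPase-activating protein of focal adhesions, was at 3127 on the SCTR siRNA array and 1333 on the control array, with differences of 1.24, 1.54 and 1.23 over its 3 probes. In all 5 genes of the list with at least 2 detected probes, the probes agreed in sign. Without background correction the median of the list was 0.96, and with the dimmest detected probe of each gene it was 0.90. In the 250 bases before their starts, F3, FJX1 and MYOF had 0 matches to the TEAD letters, and F3 had 2 AP-1 matches. Of the list's other measured genes with a promoter there and not chosen above, NUAK2 had 2 TEAD matches, PTPN14 had 1 and IGFBP3 had 0.

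A longer published signature of YAP was split into 45 genes of various functions and 12 genes of cell division and nucleotide supply. The lists were written from memory and split with earlier results of these arrays known, so the contrast between the portions is descriptive only. The first portion was mostly higher on the SCTR siRNA array: 13 of the 22 measured genes exceeded the control array by 1.5-fold or more, 3 were lower by that much, and the median was 0.71, beside 19.5% of all genes higher and 22.6% lower. It shares 5 measured genes with the 22-gene list, so the lists are not separate evidence. Thrombospondin, THBS1, an adhesive matrix glycoprotein, was at 24503 on the SCTR siRNA array and 4651 on the control array, a difference of 2.51. NDRG1, a stress-responsive gene, was at 1.29, and PHGDH, the first enzyme of serine synthesis, at 1.24. The 3 lower genes, named after their values were seen, were the kinase SGK1 (-1.12, other probes -1.17 and -1.11), the MAP kinase phosphatase DUSP1 (-1.03) and GADD45B (-1.01), all of which also respond quickly to stress or hormones.

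The growth genes of the same signature lay on the other side. Of the 11 measured genes, 6 had SCTR siRNA values lower by 2-fold or more and 2 were higher by 2-fold or more; their median was -1.06. Of all genes, 8.44% were lower and 9.73% higher by that much. The counts depend on the treatment: in the authors' values, and equally without correction, 3 were lower and 1 higher. Over all 8661 genes the counts fell as well, from 731 lower and 843 higher under the main treatment. They were 394 and 637 in the authors' values, and 417 and 615 without correction. The topoisomerase TOP2A had an intensity of 213 on the SCTR siRNA array and 947 on the control array, a difference of -2.93. BIRC5, or survivin, was at -1.97, the microtubule regulator STMN1 at -1.73, the dUTPase DUT at -1.39 (second probe -1.37) and thymidine kinase TK1 at -1.25. The kinetochore gene CENPF was at 1.19. The other gene higher by 2-fold, SHCBP1, named after its values were seen, was bright. It was at 25784 on the SCTR siRNA array and 13827 on the control array, a difference of 1.05. This was 1.12 in the authors' values and 0.83 under median scaling. BIRC5 (intensity 161), TK1 (176) and the second DUT probe (161) were near background on the SCTR siRNA array, as CENPF (171) was on the control array. In the authors' values TOP2A was at -2.17, STMN1 at -1.31, BIRC5 at -1.09 and DUT at -0.93 (second probe -0.69). There TK1 was at -0.68 and CENPF at 0.69, and this list had a median of -0.68. CCN1 and CCN2 thus lay on the opposite side of 0 from most growth genes of this signature.

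**Figure D4:**
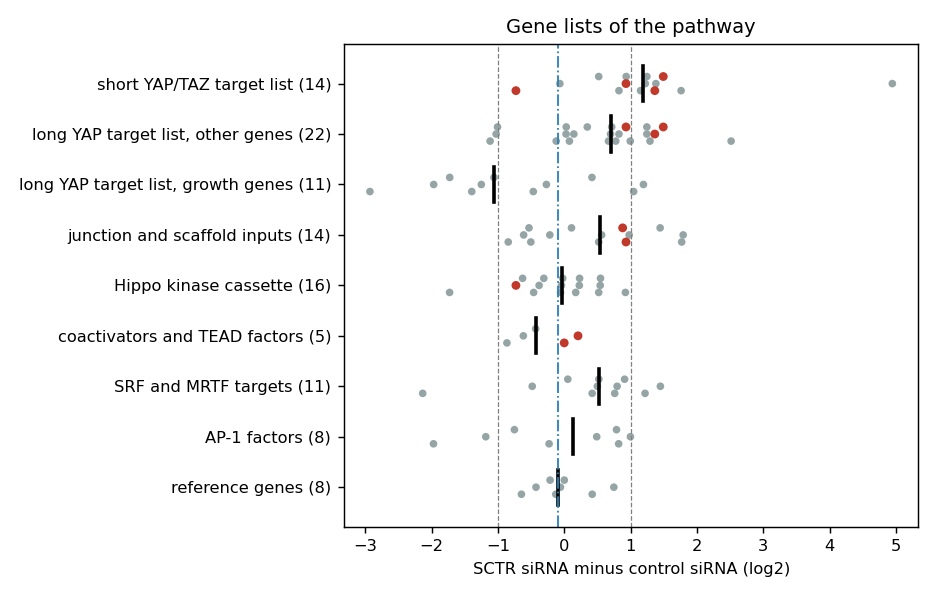
Log2 difference, SCTR siRNA minus negative control siRNA, of each gene of 9 lists detected on both arrays, with the number of genes in brackets; red points are the 7 measured Hippo and YAP genes chosen by symbol, black bars the medians, the dash-dotted line the median of all genes (-0.09) and dashed lines 2-fold. The list of 22 YAP and TAZ targets has a median of 1.18 and the growth genes one of -1.06.

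Upstream of YAP, the kinase cassette list showed no common direction, with 7 genes above 0 and 9 below. It holds both activators of the cascade and genes that oppose it. Of 16 genes measured, 12 were within 1.5-fold, 1 was higher and 3 lower, and the median was -0.03 (0.07 under median scaling). Both counts were under the shares over all genes, 19.5% higher and 22.6% lower, and the lower genes numbered 1 in the authors' values. Shares of all genes at 1.5-fold were not counted in those values. WWC1, or KIBRA, a scaffold that activates LATS kinases, was at 487 on the SCTR siRNA array and 1363 on the control array, a difference of -1.73. SAV1, the adaptor of the MST kinases, was at -0.63, and LATS2 is given above. FRMD6, also called Willin, a FERM protein placed upstream of the kinases, was at 2377 on the SCTR siRNA array and 1267 on the control array, a difference of 0.92 (second probe 1.17). The kinase TAOK2 was at 0.55 and STRN4, a striatin of the phosphatase complex that opposes the MST kinases, at 0.54.

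Genes of cell junctions and polarity that feed into the pathway were mixed, with 6 of 14 at least 1.5-fold higher, 2 lower and a median of 0.54, beside 19.5% of all genes higher and 22.6% lower. In the authors' values 4 were higher and 0 lower, for which no share over all genes was counted. E-cadherin, CDH1, which mediates contact between epithelial cells, was at 13807 on the SCTR siRNA array and 4115 on the control array, a difference of 1.79. The giant cadherin FAT1 was at 8850 on the SCTR siRNA array and 2632 on the control array, a difference of 1.77 (second probe 1.88). The polarity gene SCRIB was at 1.44, and PATJ at 0.98 but 0.51 without background correction. AMOTL2 and AJUBA, given above, were the next in size. Including members detected at a p under 0.05, the median was 0.31.

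Among the DNA-binding partners, TEAD2 was at 1226 on the SCTR siRNA array and 2103 on the control array, a difference of -0.87. TEAD4 was at 692 on the SCTR siRNA array and 984 on the control array, a difference of -0.62. VGLL4, which competes with YAP for TEAD factors, was at -0.43. TEAD3 and VGLL1 were not detected on either array at a p under 0.01. With YAP1 and WWTR1 the 5 measured genes of this group had a median of -0.43, and of them 2 were lower and 0 higher at the 1.5-fold threshold, against 22.6% of all genes lower and 19.5% higher. TEAD4 was under 1.5-fold in the authors' values (-0.52) and with background left in (-0.55), so that 1 of the 5, TEAD2, was then lower. The shares over all genes at 1.5-fold were not counted under these treatments.

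Because CCN1 and CCN2 also answer to SRF and its cofactors of the MRTF family, which sense actin, a list of SRF, its cofactor MRTFA and targets of SRF was counted beside them. Of 11 measured genes of this list, 5 were at least 1.5-fold higher on the SCTR siRNA array and 1 lower, with a median of 0.52, where 19.5% of all genes were higher and 22.6% lower. SRF itself was at 2208 on the SCTR siRNA array and 851 on the control array, a difference of 1.45. The focal adhesion gene vinculin, VCL, was at 1.22 by both of its probes, zyxin, ZYX, at 0.91, FHL2 at 0.80 and calponin CNN2 at 0.76. Tropomyosin TPM1 went the other way, with 429 on the SCTR siRNA array and 1521 on the control array and a difference of -2.13 (second probe -2.11). The part of SRF in the values of CCN1 and CCN2 was not tested.

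AP-1 factors, which bind beside TEAD at many enhancers, divided evenly, 3 of 8 at least 1.5-fold higher and 3 lower, with a median of 0.13, where 19.5% of all genes were higher and 22.6% lower. JUN was at 1.00, JUND at 0.82 and FOSB at 0.79. FOS was at -1.97, with 1994 on the SCTR siRNA array and 7528 on the control array, ATF3 at -1.18 and JUNB at -0.75. In the authors' values FOSB was at 0.51 and JUNB at -0.48, which leaves 2 of 8 higher and 2 lower. The shares of all genes given here are those of the main treatment. Reference genes had a median of -0.09 over 8 genes, the same as all genes. By brightest probe they ranged from -0.65 (TBP) to 0.75 (POLR2A). At 1.5-fold TBP and POLR2A were the 1 lower and the 1 higher gene of the list, both named after their values were seen. A second, dimmer probe of YWHAZ lay outside this range, at -1.26 (-0.78 in the authors' values). The brightest YWHAZ probe was at -0.13.

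A further 6 genes of these lists were detected on 1 array only, 3 on each, and their bounds under the main treatment were under 2-fold. SIKE1, another member of the striatin complex, had the largest, at least 1.82-fold higher on the control array. The angiomotin AMOT (at least 1.19-fold) and the polarity gene PARD3 (at least 1.28-fold) were also detected on the control array only, while TAGLN (at least 1.14-fold) and MOB1B (at least 1.03-fold) were detected on the SCTR siRNA array only; TNS1 had no bound above 1. The Hippo component NF2 was not detected on either at a p under 0.01. The bounds of SIKE1, AMOT and PARD3 did not hold in the authors' values. There SIKE1 was at -0.38, AMOT at -0.13 and PARD3 at -0.29, against log2 bounds of 0.87, 0.25 and 0.36 in size. TAGLN (0.52) and MOB1B (0.32) stayed beyond their log2 bounds of 0.19 and 0.05.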

How the data were processed

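RNA of MCF-10A cells was measured on 2 Illumina arrays, 1 per group, and groups were taken from the treatment label. The authors' deposited non-normalized table lists 47323 probes with an intensity and, for each array, a detection p-value, and 7 of them have no signal, and GenomeStudio 2011.1 is named for it, per the submitters' processing notes. The deposited processed table holds log2 values of 16871 probes, whose columns are levels with equal medians of 8.57 and correlate with the log2 intensities at r = 1.00, across probes; no source used here gives the steps behind it. Of its probes, 13060 had 1 symbol in the platform annotation, 3 had more than 1 symbol and 3808 were not in that annotation, so both kinds stayed unnamed; 13054 gene IDs matched RefSeq, which changed 0 symbols. Probes outside this table carry no name.

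Background correction used limma 3.58.1 in R 4.3.3 (normal-exponential fit, negative controls estimated through the detection p-values, offset 16). Values were then quantile normalized and log2-transformed. These steps were tested on simulated data with known differences. Differences are SCTR siRNA minus negative control siRNA. Each gene was represented by the brightest of its probes detected on both arrays (p under 0.01). For a gene detected on 1 array, the bound compares its level with the lowest level of any detected probe on the other array, or with its own level there if that is higher. The named genes were the 10 chosen genes, the measured coactivators and TEAD factors, and up to 6 genes with the largest absolute difference in each other list. The members and lists were chosen with earlier results of these data known, and the target lists were written from memory of published signatures. No p-value was computed for any difference.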

Additional observations from a re-analysis of the deposited data

How the results depend on the processing

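Each difference, count and list median was recomputed without background correction, with an offset of 50, with median scaling and from the authors' values. Counts and medians were also recomputed with a detection p under 0.05, without a detection filter, with the mean or the dimmest of a gene's detected probes and, for the counts at 2-fold over the chosen and all genes, at 1.5-fold. Of 300 such values, 268 stayed within the probe-to-probe SD of 0.37 (differences and medians) or within 1.5 times the count, and 32 moved. Some of the 268 could not move, so the tally overstates stability. The AP-1 list and the coactivator and TEAD list had 0 genes with 2 or more detected probes. For them the probe mean and dimmest probe repeat the main value. AMOTL2 was at 0.48 in the authors' values and 0.48 with background left in. At 1.5-fold under the main treatment, 4 of the chosen genes were higher and 1 lower, and 1691 and 1955 of all genes. All genes were counted at 1.5-fold under the main treatment only. Of the chosen genes, AMOTL2 and LATS2 fell under 1.5-fold in the authors' values and without correction. LATS2 did so with an offset of 50 as well. The count of all genes at least 2-fold lower, 731, was 417 without correction and 394 in the authors' values, and the median of the YAP growth genes was -0.68 in the authors' values. Of the growth genes lower by 2-fold, the number was 3 without correction and in the authors' table, and 1 gene was higher in both, with an offset of 50 and under median scaling. Without correction and in the authors' table the 1.5-fold counts of lower genes were 1 for the coactivators and TEAD factors, 1 for the kinase cassette (also with an offset of 50) and 0 for the junction genes, the 22-gene target list (also with an offset of 50) and the reference genes. The kinase cassette had 2 higher genes under median scaling and 2 with no detection filter. With the dimmest probe 2 genes of the SRF list and 2 reference genes were lower, as were 2 reference genes with the probe mean. The cause was not tested. No called difference changed sign, while the sign of YAP1 and of the kinase cassette median, both near 0, varied. Under median scaling AMOTL2 passed 2-fold as well, which made 3 genes. Precision is limited by signal over background for WWTR1, LATS2 and AMOTL2. No paired analysis was possible because each group has 1 array.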
